A study of Mus musculus with 3 samples.

Results

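Mouse bone marrow cells were examined for 52 genes that act in the G2 phase and in mitosis, from entry into mitosis to the division of the cell body. The genes were chosen by symbol for their function, with earlier results of these data known, and each of the 52 symbols matched 1 of the 32285 genes in the count matrices. The study made 3 single-cell RNA libraries with the 10x Genomics 3' v2 kit from mouse marrow of femora, tibiae, hips and spines, and sorted cells by flow cytometry. LSK is the gate of lineage-negative cells that carry Sca-1 and Kit, which holds blood stem cells and multipotent progenitors. LK is the gate of lineage-negative cells that carry Kit, which holds committed progenitors, and the labels do not say whether Sca-1 positive cells were kept out of it. TBM is total bone marrow. The lineage cocktail held antibodies to Ter119 (red cells), CD11b, Ly-6G and Ly-6C (myeloid cells), CD45R (B cells), CD8a and CD5 (T cells). The labels name no strain, age, sex or number of mice, and no genotype or treatment.

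A cell enters mitosis when the kinase Cdk1, bound to a B-type cyclin, becomes active. Chromosomes are then condensed, the nuclear envelope is taken apart, kinetochores attach to spindle microtubules, and the anaphase-promoting complex marks securin and cyclin B for destruction so that the sister chromatids part. In marrow, stem cells divide rarely, while committed progenitors and the early precursors of red cells, neutrophils and B cells divide often, and the last stages of each line leave the cell cycle.

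Each group was 1 library, so no difference between groups has a replicate check, no p-value is given, and every interval is a 95% interval that covers counting error only. After filtering, LSK held 1067 cells with 11836820 UMIs (unique molecular identifiers, each marking 1 captured RNA molecule), LK 3461 cells with 49936180 UMIs and TBM 4217 cells with 21958139 UMIs. The median depth was 9688 UMIs per cell in LSK, 13683 in LK and 3347 in TBM. Each cell was therefore thinned at random to 2000 UMIs, which left out 0 LSK, 9 LK and 1288 TBM cells that were shallower. The TBM cells left out were 30.5% of that library and were not a random part of it: among the 1159 of them with at least 1000 UMIs, cells of the B lineage and cells rich in S100a8 and S100a9 prevailed, and the 52 genes had a mean of 1.73 UMIs per 1000, against 6.21 in the TBM cells that were kept. For LSK, LK and TBM the labels give 1070, 3441 and 3984 sorted cells, and the matrices held 1091, 3560 and 4317 barcodes. The gates carried markers that fit their names: at 2000 UMIs, a UMI of the stem cell gene Procr was seen in 140 LSK, 50 LK and 2 TBM cells, and 200 or more globin UMIs in 0, 0 and 443 cells. Few barcodes were shared between libraries (6 between LSK and LK, 6 between LSK and TBM, 26 between LK and TBM).

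Short promoter sequences are shown first for the 3 genes that were tied most closely to the rest of the group in LK and the 3 that were tied least, by the ratio described further on. The sequences are RefSeq's for GRCm38.p6, from 150 bases before the transcription start to 30 bases after it, in the direction of transcription. Capitals mark 2 kinds of motif on either strand: the core of the cell cycle homology region, which the MuvB complex binds, and the CCAAT box, which NF-Y binds. The core was searched as TTTGAA (seen here as the letters TTCAAA where it lies on the opposite strand) and, as a further form, as the palindrome TTCGAA. The box reads ATTGG where it lies on the opposite strand.
Ube2c (chr2:164769779-164769958, plus strand): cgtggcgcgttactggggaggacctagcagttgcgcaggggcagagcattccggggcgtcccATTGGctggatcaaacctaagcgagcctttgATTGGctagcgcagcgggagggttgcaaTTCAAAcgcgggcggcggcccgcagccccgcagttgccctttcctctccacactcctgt
Hmmr (chr11:40733408-40733587, minus strand): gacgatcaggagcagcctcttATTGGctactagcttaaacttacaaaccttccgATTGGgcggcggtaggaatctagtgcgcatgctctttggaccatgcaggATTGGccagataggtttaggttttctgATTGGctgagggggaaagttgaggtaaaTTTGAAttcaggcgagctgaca
Nusap1 (chr2:119618148-119618327, plus strand): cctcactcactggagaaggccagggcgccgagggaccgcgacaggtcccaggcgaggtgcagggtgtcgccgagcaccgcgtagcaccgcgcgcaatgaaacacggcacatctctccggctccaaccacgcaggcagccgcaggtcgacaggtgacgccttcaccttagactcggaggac
Lbr (chr1:181842372-181842551, minus strand): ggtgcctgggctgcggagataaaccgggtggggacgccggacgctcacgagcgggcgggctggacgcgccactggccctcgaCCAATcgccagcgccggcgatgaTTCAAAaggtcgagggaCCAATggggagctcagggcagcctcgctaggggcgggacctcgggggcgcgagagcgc
Cbx5 (chr15:103239823-103240002, minus strand): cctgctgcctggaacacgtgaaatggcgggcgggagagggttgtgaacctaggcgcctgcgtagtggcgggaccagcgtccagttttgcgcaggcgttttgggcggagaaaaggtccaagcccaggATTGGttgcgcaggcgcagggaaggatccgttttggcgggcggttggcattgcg
Ctcf (chr8:105636388-105636567, plus strand): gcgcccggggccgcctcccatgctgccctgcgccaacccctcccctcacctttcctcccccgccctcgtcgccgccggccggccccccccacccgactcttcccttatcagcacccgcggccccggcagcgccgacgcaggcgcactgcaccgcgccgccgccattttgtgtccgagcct
Ube2c carries 1 TTTGAA match that starts 29 bases before the transcription start and 2 CCAAT boxes that start 88 and 57 bases before it. Hmmr has 4 CCAAT boxes and a TTTGAA match beyond the start, while the stretch shown for Nusap1 has neither motif. Lbr, at the other end of the order, has a TTTGAA match 45 bases before the start and 2 CCAAT boxes, Cbx5 has 1 CCAAT box, and Ctcf has none. The presence of these letters thus did not divide the 3 closest from the 3 loosest genes. Over the full windows of the RefSeq table (250 bases before to 50 after the start), TTTGAA stood in 33 of the 46 genes with a window, or 71.7%, against 20.2% of all 27025 genes in that table. TTCGAA stood in 8.70% against 1.80%, and CCAAT in 76.1% against 41.1%. Of 43 S phase genes, 31 had a window, and TTTGAA stood in 19.4% of them, while CCAAT stood in 71.0%. Of the genes with a window, TTTGAA stood in 80% of the 10 with the highest ratio in LK and in 70% of the 10 with the lowest. Matches of 2 motifs overlapped in 1 of the 51 windows of these genes (some genes have several). These are counts of letters and say nothing of binding. Windows of Smc4, Tpx2, Cdc25c, Cdca2, Dlgap5 and Aurkb were not used here.

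The 52 genes together took a larger share of the RNA in TBM than in LK, and a larger share in LK than in LSK. A thinned LSK cell held a mean of 7.11 UMIs of the group and a median of 4, with the middle 50% of cells between 2 and 8 and the highest cell at 49. In LK the mean was 9.15 and the median 7 (middle 50% from 4 to 11, highest cell 57). In TBM the mean was 12.4 but the median only 5 (middle 50% from 2 to 19, highest cell 107). The libraries thus differed in shape: most TBM cells held as few UMIs as LSK cells and a large minority held many, whereas LK cells sat in 1 broad group with few cells near 0. As CPM (UMIs scaled to a total of 1000000 over all thinned cells of a library), the sum was 3557 (3477 to 3638) in LSK, 4575 (4525 to 4626) in LK and 6218 (6154 to 6282) in TBM, so that LSK was lower than LK by a log2 ratio of -0.36, LK lower than TBM by -0.44 and LSK lower than TBM by -0.81. Without thinning the shares of all UMIs were 0.452%, 0.51% and 0.758%, in the same order. The TBM value depended on which cells entered: at 1000 UMIs per cell, which keeps most of the shallow cells, it was 0.494% against 0.622% at 2000 UMIs, and LK was at 0.462%.

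**Figure D1:**
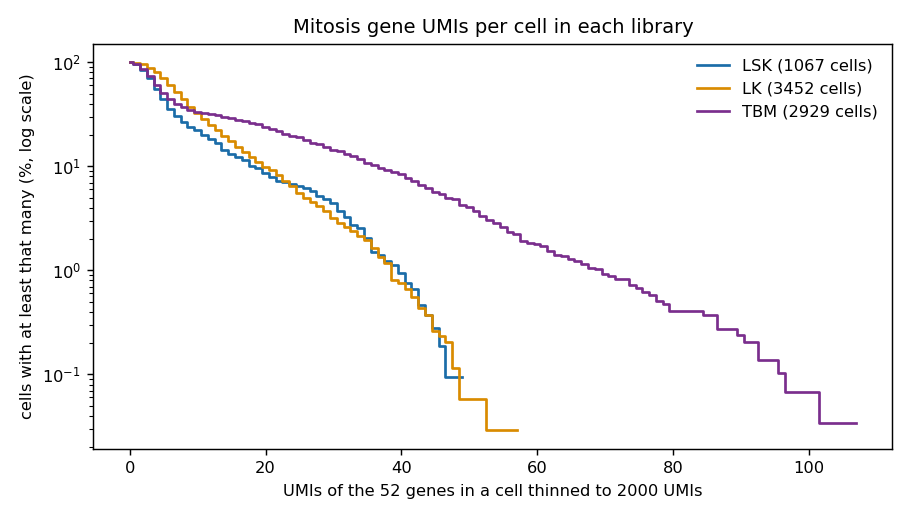
The share of cells (y axis, percent, log scale) with at least the number of UMIs of the 52 genes given on the x axis, for cells thinned to 2000 UMIs, in LSK (1067 cells), LK (3452) and TBM (2929). The LK line lies above the others at low sums, and the TBM line lies far above both from about 20 UMIs on and reaches 107.

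A resting reference was sought in TBM cells with the B cell receptor gene Cd79a and with Ighd, the heavy chain of mature B cells. Their median was 2 UMIs of the group, but 9 of the 197 cells held 20 or more, and the 99th percentile, which was to serve as the limit for cells rich in the group, came to 50.1 UMIs. Above it lay 0 of 1067 LSK cells (an upper bound of 0.345%), 0.0579% of LK cells and 3.72% of TBM cells. That limit rests on those 9 cells, and hardly any LK cell reached it. With a limit of 20 UMIs, chosen after the values were seen, 8.62% of LSK cells (7.01 to 10.5), 9.91% of LK cells (8.93 to 10.9) and 24.1% of TBM cells (22.5 to 25.7) lay at or above it. Those cells held 36.3% of the group's UMIs in LSK, 30.2% in LK and 70.9% in TBM. At the 95th percentile of the reference, 7.2 UMIs, the order of LK and TBM was the other way round, with 44.4% of LK cells and 36.9% of TBM cells above it and 27% of LSK cells.

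S phase genes, a separate list of 43 genes of DNA replication, ran in another order. Their mean was 6.85 UMIs per thinned cell in LSK, 8.25 in LK and 4.39 in TBM. Of 43 measured S phase genes, 21 were at least 2-fold higher in LK than in TBM (30.4% of all genes were) and 2 at least 2-fold lower (15.6% of all genes). A list of 45 further mitosis genes, such as Ccnb1 (cyclin B1) and Plk1 (polo-like kinase), ran as the 52 did, with 1467, 1764 and 2084 CPM in LSK, LK and TBM. These lists too were chosen by function with earlier results known.

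By role, each of the groups with at least 3 genes was higher in TBM than in LSK, although for the 4 motors the intervals overlapped. Cdk1 and its partners were highest in LK by CPM: the sum of the 5 genes was 922 CPM in LK (900 to 945), 734 in TBM (712 to 756) and 510 in LSK (480 to 541). The log2 ratio of LK over TBM was 0.33. Scaling by median-of-ratios size factors lowers every such ratio by 0.56, so LK was then below TBM. The higher CPM in LK lay with the small subunits that bind Cdk1. Cks2 had levels of 207, 428 and 293 CPM in LSK, LK and TBM. Cks1b, its near relative, had 173, 296 and 152. Cdk1 itself had 63.7, 94.6 and 125, and its cyclin Ccnb2 had 60.5, 95.6 and 152, so that both were highest in TBM. Cdc25c, the phosphatase that activates Cdk1, had 5.62, 8.84 and 11.6, with intervals that overlap between LK and TBM.

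Genes of the anaphase-promoting complex and its regulators differed most between LSK and TBM. Ube2c, the ubiquitin-conjugating enzyme of the complex (chr2:164769898-164778822, plus strand, GRCm38), had 47.3 CPM in LSK (38.6 to 57.5), 82.1 in LK (75.5 to 89.2) and 345 in TBM (330 to 360). Its log2 ratio of LK over TBM was -2.07 (-2.21 to -1.93) and that of LSK over TBM was -2.86, the lowest of the 52 in both comparisons. Cdc20, the activator of the complex, had 45.9, 79.1 and 80.9, so that LK and TBM did not differ beyond counting error. Cdca3, a trigger of mitotic entry, had 38.9, 76.8 and 128.

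Among kinases and checkpoint proteins, Aurkb (Aurora B, the kinase of the chromosomal passenger complex) had the most UMIs, with levels of 30.9, 54.6 and 51.2 CPM in LSK, LK and TBM. Aurka, which acts at spindle poles, had 15.0, 25.1 and 46.9. The checkpoint kinases Bub1 and Ttk lay between 8.90 and 13.3 in every library, with overlapping intervals.

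At the centromere, Birc5 (survivin, a passenger protein) had 77.3, 127 and 250 CPM in LSK, LK and TBM. Cenpa, the centromeric histone, had 68.4, 102 and 166. Hjurp, the chaperone that loads Cenpa, ran otherwise, with 68.4 in LSK (57.8 to 80.5), 46.1 in LK (41.1 to 51.4) and 52.6 in TBM. Chaperone and cargo therefore differed in order. Cenpf, a large kinetochore protein, had 27.7, 25.1 and 64.7.

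Of the motors, Kif23, which bundles microtubules of the spindle midzone, had 38.0, 27.4 and 39.1 CPM, and Kif11, which pushes spindle poles apart, had 14.5, 12.6 and 28.0. The spindle group was led by the beta tubulin Tubb4b, which was level in the 3 libraries (301, 302 and 312). Nusap1, which binds spindle microtubules, had 50.1 in LSK, 46.4 in LK and 133 in TBM, and Dlgap5, which stabilises kinetochore fibres, had 8.90, 12.0 and 28.0. Gas2l3, which links actin to microtubules in late division (chr10:89408823-89443967, minus strand, GRCm38), had the highest ratio of LSK over LK, with 28.6 CPM in LSK (21.9 to 36.7), 6.52 in LK (4.75 to 8.72) and 8.88 in TBM (6.63 to 11.6). Without thinning, which gives deep cells more weight, its log2 ratio of LSK over LK was 1.31 in place of 2.13.

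Chromosome proteins made up the largest group, chiefly through Hmgb2, a DNA-bending protein that is also abundant outside mitosis. Its levels were 814, 1094 and 1917 CPM in LSK, LK and TBM. With it left out, the sum of the other 51 genes was 2743, 3481 and 4301, in the same order. Mki67, which coats mitotic chromosomes, had 27.7 in LSK and 28.7 in LK, which overlap, and 102 in TBM. Top2a, which untangles sister chromatids, had 156 in TBM, 106 in LSK and 88.8 in LK. The condensin subunit Ncapd2 had 37.5, 22.7 and 27.3, and LK and TBM did not differ beyond counting error. Cbx5, the heterochromatin protein HP1 alpha, and Ctcf, which bounds chromatin loops, ran in the opposite direction to the group over the 3 libraries, with 67.0, 52.4 and 33.8 for Cbx5 and 104, 83.4 and 72.4 for Ctcf. For Ctcf this order did not hold under other scalings, where its log2 ratio of LK over TBM was -0.04 without thinning and -0.35 with size factors in place of 0.20. That of Cbx5 was 0.23 and 0.07 in place of 0.63.

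At the nuclear envelope, Lbr, the lamin B receptor, had 135, 142 and 295 CPM, and Tmpo, which ties lamins to chromatin, had 183, 197 and 230. Rangap1, which ends the Ran cycle at the pore and at kinetochores, had 69.4, 79.4 and 45.6, and LSK and LK did not differ beyond counting error. Anln, an organiser of the cleavage furrow, had 3.28, 3.77 and 10.8, while the ubiquitin ligase G2e3 had 5.62, 4.20 and 8.19, and its LSK interval overlapped those of both other libraries.

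**Figure D2:**
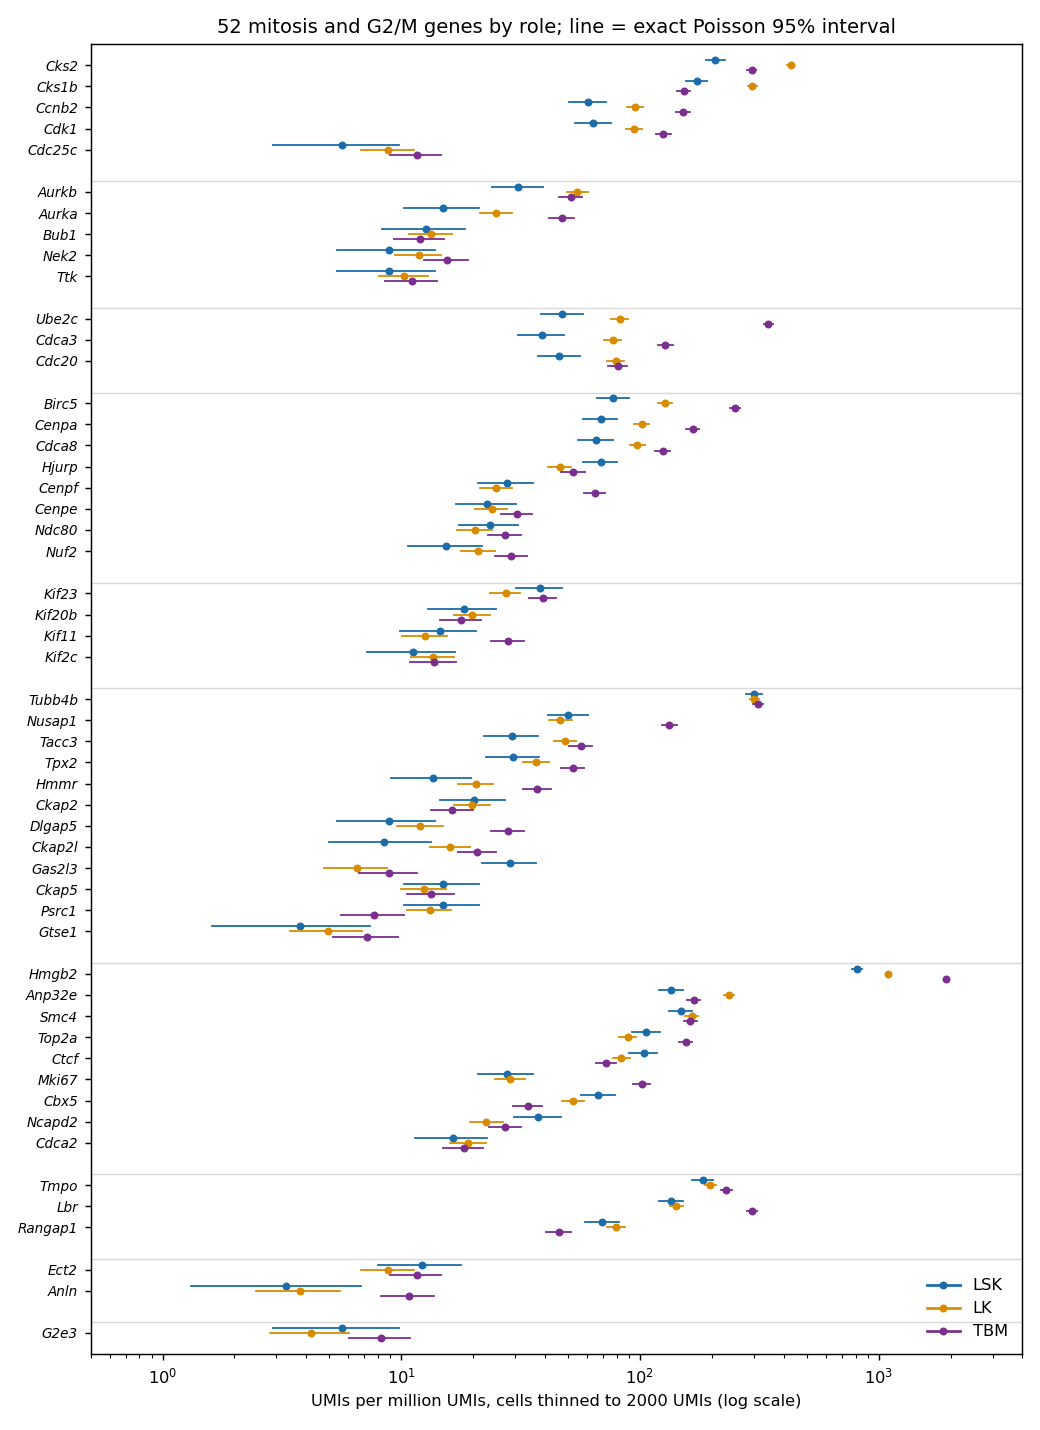
CPM (x axis, log scale) of each of the 52 genes in LSK, LK and TBM cells thinned to 2000 UMIs, in blocks by role; points are the values and lines their exact Poisson 95% intervals. Ube2c and Mki67 are far to the right in TBM, Gas2l3 is to the right in LSK (28.6), and Cks1b and Cks2 are highest in LK.

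A fold of 2 between LSK and LK was passed by few of the 52 genes. For LSK over LK, 1 of 52 was at least 2-fold higher (Gas2l3, log2 2.13, 1.55 to 2.72) where 13.4% of all genes were, and 1 of 52 was at least 2-fold lower (Cks2, -1.05) where 3.57% of all genes were. The next lowest were Cdca3 (-0.98), the spindle protein Ckap2l (-0.93), Aurkb (-0.82), Anp32e (-0.81), which removes a histone variant, and Ube2c (-0.80). The next highest were Ncapd2 (0.72), Hjurp (0.57), Kif23 (0.47), Ect2 (0.46), which starts the cleavage furrow, and Cbx5 (0.35). The interval of Ect2 included 0. Without thinning the ratio of Ckap2l was 0.03, and 0 of the 52 genes were at least 2-fold lower. The share of all genes was not counted without thinning. The median of the 52 was -0.20 and that of all genes 0.22.

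LK over TBM gave 0 of 52 genes at least 2-fold higher, where 30.4% of all genes were, and 8 of 52 at least 2-fold lower, where 15.6% of all genes were. The 8 were Ube2c, Mki67 (-1.83), Nusap1 (-1.52), Anln (-1.51), Cenpf (-1.37), Dlgap5 (-1.22), Kif11 (-1.15) and Lbr (-1.05). The highest were Cks1b (0.96), Rangap1 (0.80), the spindle protein Psrc1 (0.78), Cbx5 (0.63), Cks2 (0.54) and Anp32e (0.49). The median of the 52 was -0.39 against 0.45 over all genes. That background shift matters for small ratios: scaled by median-of-ratios size factors, which lowers every ratio of LK over TBM by 0.56, Cks2 (-0.01) and Anp32e (-0.07) changed sign, Cks1b, Rangap1, Psrc1 and Cbx5 did not, and 22 genes were at least 2-fold lower in place of 8. At 5000 UMIs per cell, which keeps 1599 TBM cells, 28 were. The share of all genes was not counted under either setting, so the 22 and the 28 have no background to be set against.

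LSK over TBM gave 1 of 52 at least 2-fold higher, Gas2l3 (1.69), where 36.6% of all genes were, and 16 of 52 at least 2-fold lower, where 13.2% were. The 6 lowest were Ube2c, Mki67 (-1.88), Cdca3 (-1.72), Anln (-1.71), Birc5 (-1.69) and Aurka (-1.65). After Gas2l3 the highest were Cbx5 (0.99), Psrc1 (0.96), Rangap1 (0.61), Ctcf (0.52) and Ncapd2 (0.46), of which Rangap1 (-0.13), Ctcf (-0.22) and Ncapd2 (-0.28) changed sign under size factors. Gas2l3 was under 2-fold both without thinning (0.92) and with size factors (0.95). The count of lower genes was 34 with size factors, a setting for which the share of all genes was not counted. The 3 comparisons share libraries, so their values are not independent of each other.

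Lineage markers divided the libraries into cells with low and high sums. Cells were placed by UMIs of marker genes at 2000 UMIs per cell, with thresholds of 1 UMI for Procr (the stem cell surface protein EPCR) and Ms4a2 (basophils and mast cells), 2 for Pf4 (megakaryocytes) and Cd79a (B cells), 3 for Car1 (early red cell line) and Fcnb (neutrophil precursors), 10 for Elane (neutrophil-committed progenitors) and 200 for the globins together. Cells that met more than 1 of these were kept apart.

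In LSK, the 136 Procr cells had a mean of 4.86 UMIs of the group and a median of 3. Flt3 cells, a class of multipotent progenitors, had a mean of 9.29 and a median of 4.5 (104 cells), and Dntt cells, which are primed for lymphocytes, 8.13 and 4 (62 cells). The Procr cells of LK were also low, at a mean of 3.56 (48 cells). With thresholds doubled, the Procr class of LSK had 0.108% of its UMIs in the group in place of 0.243% (18 cells), the Flt3 class 0.28% in place of 0.464% (30 cells) and the Dntt class 0.382% in place of 0.406% (39 cells), so that Flt3 cells were then below Dntt cells. At 5000 UMIs per cell the Flt3 class was at 0.294% (21 cells) and the Procr class at 0.225% (20 cells). Read the other way, Procr itself had 34.7 CPM in the 20% of LSK cells with the highest sums and 105 in the 50% with the lowest (log2 -1.60, -2.48 to -0.82). The stem cell gene Mecom was also lower there (-1.26), and so was Kit (-0.94). Hlf, another stem cell gene, did not differ beyond counting error (-0.38, -0.91 to 0.11).

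Committed progenitors of LK were near each other. The 1064 Elane cells had a mean of 8.56 and a median of 8, the 280 Car1 cells 10.1 and 7, the 96 Pf4 cells 9.23 and 5, and the 81 Ms4a2 cells 11.8 and 6. Their spread differed more than their means: 3.2% of Elane cells held 20 or more UMIs of the group, against 12.1% of Car1 cells, 15.6% of Pf4 cells and 21% of Ms4a2 cells. Elane cells therefore had the highest median of these 4 classes and the smallest share of very high cells. Their median depth before thinning was 20125 UMIs, against 9434 for Car1 and 7873 for Ms4a2 cells, and its part in this was not tested.

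TBM held the highest sums of the study, in the red cell line and in early B cells. The 420 globin cells had a mean of 25.9 UMIs and a median of 25.5, and 62.9% of them held 20 or more. The 81 Cd79a cells with Vpreb1 or Igll1, genes of the surrogate light chain of pro-B and pre-B cells, had a mean of 23.6 and a median of 17. Cd79a cells with neither these genes nor Ighd were split, with a mean of 14.5, a median of 3 and a highest cell of 107 (289 cells). Ighd cells had a median of 2 (mean 4.45), so that the B lineage held both high and low sums. The order of the high classes moved with the settings. The share of UMIs in the group was 1.29% in globin cells, 1.18% in the Vpreb1 or Igll1 class and 0.725% in Cd79a cells with neither, and at 5000 UMIs per cell it was 1.33%, 1.54% and 1.98% (401, 43 and 78 cells). With thresholds doubled the Vpreb1 or Igll1 class was at 0.76% and Cd79a cells with neither at 0.475%.

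The neutrophil line formed a second such series. In TBM the 59 Elane cells had a mean of 11.3 and a median of 10, the 98 Fcnb cells 14.8 and 13.5, the 893 cells with the granule genes Camp, Ngp and Ltf 7.76 and 4, and the 93 cells rich in S100a8 and S100a9 without them 4.32 and 4. No cell of the last class held more than 11. Camp, Ngp and Ltf cells were uneven, since 12.7% of them held 20 or more. Granule genes also take up UMIs in these cells, and the order was another without them. With globin and granule UMIs left out of the total, the group took 0.977% in Camp, Ngp and Ltf cells in place of 0.388%, 1.35% in Fcnb cells in place of 0.742%, and 0.544% in Elane cells in place of 0.564%, so that Elane cells were then below Camp, Ngp and Ltf cells. Only 555 of the 893 Camp, Ngp and Ltf cells had 2000 UMIs left for this, so the cells compared also differ. The monocyte-like class, by Csf1r, F13a1 and Ly6c2, had a mean of 11.8 and a median of 5 (368 cells). Cells with Cd3 genes or Nkg7 had a mean of 3.90 and a median of 2 in TBM (124 cells). In LSK and LK that class rested on Nkg7 alone and carries no cell type name.

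**Figure D3:**
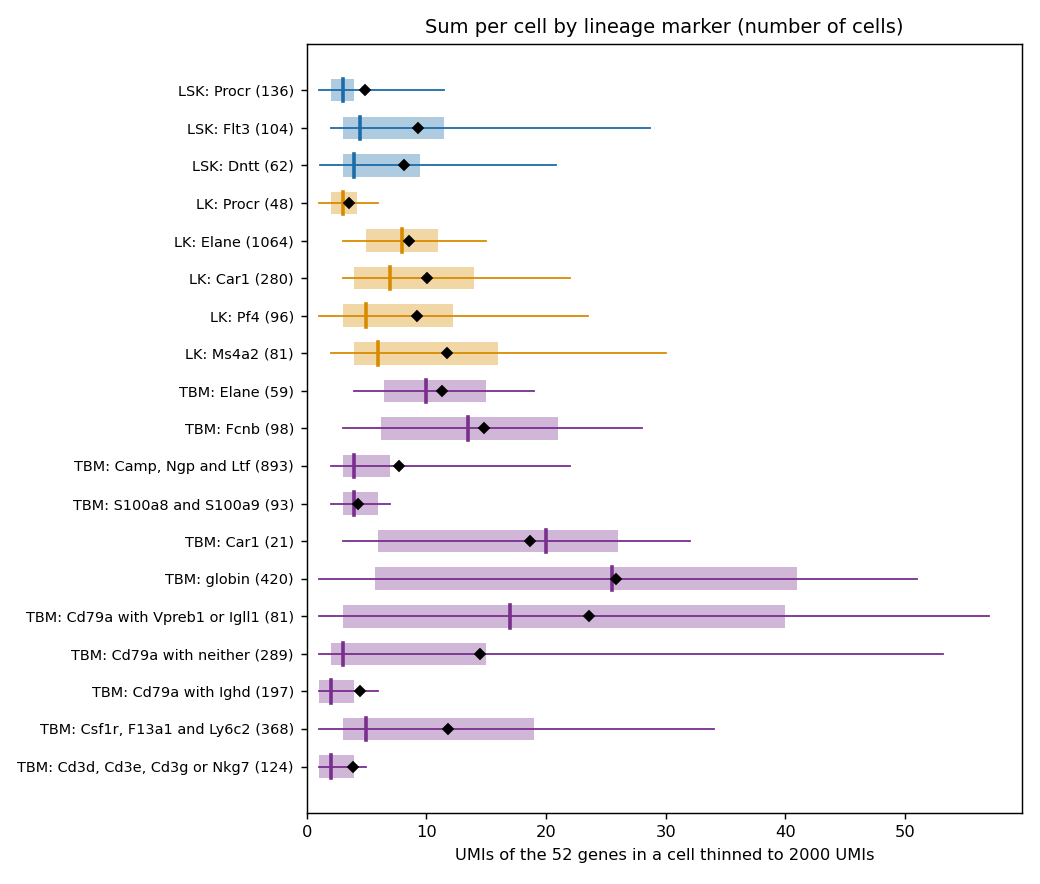
UMIs of the 52 genes per cell thinned to 2000 UMIs (x axis) in marker classes of each library, with the number of cells; boxes span the middle 50% of cells, the line in the box is the median, thin lines reach the 10th and 90th percentiles and diamonds are means. Globin cells (median 25.5) and Cd79a cells with Vpreb1 or Igll1 (median 17) lie to the right, and Procr, Ighd and S100a8 and S100a9 cells lie to the left.

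Within the red cell line the sum differed with the globin content of the cell. In 183 cells with 30% to 60% globin UMIs the median was 33, and in 224 cells with 60% or more it was 9. The latter were split, with the middle 50% from 2 to 39. Globin takes up UMIs in these cells, so the group was also counted per 1000 UMIs that are not globin: 34.2 at 30% to 60% and 35.4 at 60% or more. On this scale the sum was thus about level between these 2 ranges, whereas S phase genes had 17.4 and 4.995. Between the 30% to 60% and the 60% or more range, 30 of the 52 genes had higher values in the latter and 22 lower. This split has no fold limit, several genes had few UMIs, and the share of all genes was not counted. It thus does not show by itself that the genes differed. Per 1000000 UMIs that are not globin, Ube2c had 2598 at 30% to 60% globin and 4405 at 60% or more. Cenpf had 438 and 845. In the same order Hmgb2 had 6065 and 4995, Birc5 2373 and 1575, Mki67 1100 and 697, and Ncapd2 241 and 57.4. With Ube2c left out, the sum was 31.65 and 30.96 per 1000.

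Single genes were not spread over the classes alike. Ube2c had 1225 CPM in globin cells (1151 to 1302), 457 in Cd79a cells with Vpreb1 or Igll1, 367 in Fcnb cells and 55.0 in the Elane cells of LK (45.5 to 65.9). It had 71.1 in Ighd cells and 43.0 in S100a8 and S100a9 cells, classes of TBM that are mostly past division. The LK Elane level of Ube2c lay between them. Within the LK Elane cells, however, its log2 ratio between cells high and low in the rest of the group was 4.18. Free RNA was not corrected for, and its part in these levels was not tested. Mki67 also differed between classes, with 345 in globin cells, 185 in the Vpreb1 or Igll1 class and 20.2 in LK Elane cells (14.6 to 27.2). Its LK Elane level was not told apart at this depth from the 27.9 of Ighd cells. Of those Ighd cells, 9 held 20 or more UMIs of the group. Yet the median sum of the group was 8 in the Elane cells and 2 in the Ighd cells.

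Hmgb2 and Lbr were read in the S100a8 and S100a9 cells against the Ighd cells, since free RNA was not corrected for. In the former Hmgb2 had 1226 CPM (1072 to 1396) and in the latter 503 (435 to 578). Lbr, known for its part in the lobed nucleus of the neutrophil, had 285 (213 to 373) and 134.5 (101 to 176). Both genes were thus higher in the S100a8 and S100a9 cells beyond counting error, while Ube2c was not. Lbr in that class was above its level in LK Elane cells (148, 133 to 166). Cks2 had 210 there (149 to 287), against 107 in Ighd cells (76.8 to 144) and 475 in LK Elane cells. Hjurp had 69.9 on 13 UMIs (37.2 to 119.5), which overlaps the 20.3 of Ighd cells (8.77 to 40.0). Gas2l3 had 36.8 in Procr cells of LSK (17.6 to 67.6) and 34.1 in LSK cells without a marker (24.5 to 46.3), so its LSK level was not held by Procr cells alone, and 3.29 in LK Elane cells (1.32 to 6.78).

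How closely each gene went with the others was measured within a library. Cells were ranked by the sum of the other 51 genes, and the gene's CPM in the upper 20% were divided by those in the lower 50%. Of 52 genes, 44 in LSK, 52 in LK and 52 in TBM had the 20 UMIs needed. At least 2-fold higher in the upper 20% were 43 of 44 in LSK (5.76% of all genes were), 46 of 52 in LK (3.04% of all genes) and 52 of 52 in TBM (14.1% of all genes). At least 2-fold lower there were 0 of the measured genes in each library, where 8.49% of all genes in LSK, 4.23% in LK and 23% in TBM were. The median log2 ratio was 3.42, 2.68 and 5.39, against -0.04, 0.00 and -0.23 over all genes. Cells of the upper 20% were also deeper before thinning, with medians of 15474 against 8281 UMIs in LSK, 17144 against 10346 in LK and 8487 against 3884 in TBM. The LSK genes without enough UMIs were Nek2, Ckap2l, Anln, Ttk, G2e3, Dlgap5, Gtse1 and Cdc25c.

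The 10 highest ratios in LK belonged to Ube2c (5.31), the spindle protein Hmmr (5.22), Nusap1 (5.18), Cdc25c (4.94), Kif11 (4.33), the microtubule depolymerase Kif2c (3.96), the Aurora A activator Tpx2 (3.83), Cenpf (3.64), Aurka (3.61) and Cdca2 (3.49), which brings a phosphatase to chromatin. Ube2c had 319 CPM in the upper 20% and 8.04 in the lower 50%, the clearest contrast of the group in LK.

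The 10 lowest ratios in LK belonged to Lbr (0.62, 0.39 to 0.85), Cbx5 (0.70), Ctcf (0.73), Anp32e (0.76), Gas2l3 (0.87, -0.16 to 1.86), Rangap1 (0.97), Tmpo (1.08), Hjurp (1.16), Cks2 (1.21) and Cks1b (1.40). The first 6 stayed under 2-fold. Lbr had 182 CPM in the upper 20% of LK cells and 118 in the lower 50%, and Ctcf had 126 and 75.8. Several of these proteins, such as the lamin receptor, the chromatin proteins and the pore protein, also have tasks in nuclei that are not dividing. Whether this bears on their ratios was not tested. In TBM the lowest were Ctcf (1.47), Hjurp (1.83), Lbr (1.94) and Hmgb2 (2.46), while Gas2l3 (4.38) and Cbx5 (3.50) went with the group there. In LSK only Lbr (0.95) of the 44 genes stayed under 2-fold.

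**Figure D4:**
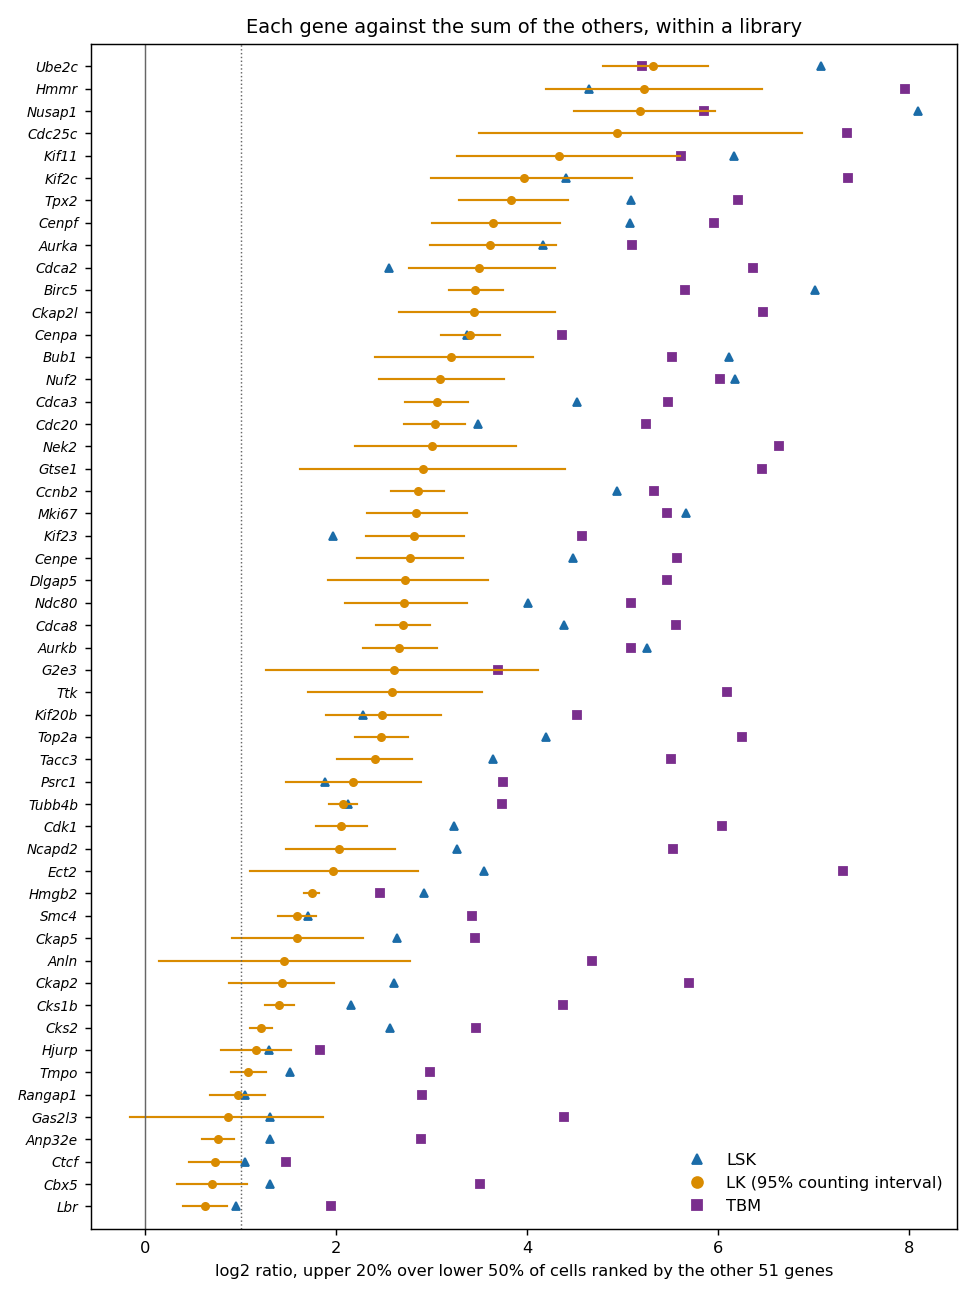
For each gene, the log2 ratio (x axis) of its level in the upper 20% over the lower 50% of cells ranked by the other 51 genes, in LSK, LK (with 95% counting interval) and TBM, ordered by LK; the dotted line is 2-fold and genes short of 20 UMIs are not drawn. Ube2c (5.31) is at the top and Lbr (0.62) at the bottom, and most TBM points lie to the right of the LK points.

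The ratio was smaller within the Elane cells of LK. There 21 of 37 measured genes were at least 2-fold higher (2.71% of all genes were), with a median of 1.38. Ube2c (4.18), Hmmr (3.70), Nusap1 (3.14) and Cenpa (2.67) still stood out, but Mki67 (0.56, -0.60 to 1.65), Cdk1 (0.64) and Top2a (0.95) did not reach 2-fold. In Car1 cells of LK 18 of 21 did (6.49% of all genes), and in the Nkg7 class of LK 26 of 31 (4.13% of all genes). In TBM, 40 of 40 did in globin cells (23.6% of all genes), 27 of 28 in Camp, Ngp and Ltf cells (16.1% of all genes), 34 of 34 in Cd79a cells with neither Ighd nor surrogate light chain genes (13.5% of all genes) and 27 of 28 in the monocyte-like class (9.2% of all genes). Lbr was the gene below 2-fold in both the Camp, Ngp and Ltf class (0.16) and the monocyte-like class (0.43), and the lowest in Car1 cells (-0.17).

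The list of further mitosis genes behaved like the 52 in this measure, with 36 of 42 at least 2-fold higher in LK (3.04% of all genes were). Pttg1 (securin, the inhibitor of chromatid separation) did not: its log2 ratio was -0.54 in LSK, -0.29 in LK and -0.47 in TBM. S phase genes differed between libraries in this measure. In LK 3 of 43 were at least 2-fold higher in the upper 20% (3.04% of all genes were). In LSK 28 of 38 were (5.76% of all genes) and in TBM 39 of 42 (14.1% of all genes). The replication repair gene Ung was lower there in LK (-2.01). Of the tubulins, which build the spindle and also serve resting cells, Tuba1b (1.44) and Tubb5 (1.66) were higher in LK and Tuba1a (0.06) was level.

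Genes outside the 52 with the largest ratios and at least 100 UMIs were mostly known mitosis genes. In LK the 8 were Plk1 (4.34), the phosphatase Cdkn3 (4.20), Pimreg (4.18), Ccnb1 (3.95), Kif20a (3.94), Kif22 (3.62), Bub1b (3.22) and Prc1 (3.16). In TBM they were Kif20a (7.13), Prc1 (6.74), Depdc1a (6.58), Ncapg (6.56), Plk1 (6.49), Pbk (6.42), Ccna2 (6.30) and Spc25 (6.21). In LSK they were Pbk (5.63), Pclaf (4.83), Spc24 (4.81), Rrm2 (3.55), Lockd (3.43), Tyms (3.07), Smc2 (2.84) and H2afx (2.59). Of these, Rrm2 and Tyms stood in the S phase list, and Pbk, Spc24 and Smc2 in the list of further mitosis genes.

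The cells of each library were also sorted on the S phase list and on the other 51 genes. Of LK cells, 371 were high in S phase genes and low in the group, 529 the reverse, 295 high in both and 1169 low in both (high means the upper 25%, low the median or less, and counts vary slightly with the gene left out). Across cells, the sums of the lists had Spearman correlations of 0.470 in LSK (1067 cells), 0.183 in LK (3452 cells) and 0.499 in TBM (2929 cells), and each pair of sums shares a cell and its depth of 2000 UMIs.

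Levels in LK cells high in the group and low in S phase genes, over those in cells of the opposite kind, ranked the genes. Cdc25c (41 against 0 UMIs) and G2e3 (13 against 0) had no ratio and were left out of this order. The highest log2 ratios were those of Nusap1 (5.09), Cenpa (5.09), Hmmr (5.08), Ube2c (4.58), Ccnb2 (4.57), Cenpf (3.77) and Cdc20 (3.37), and the median over the genes with a ratio was 1.67. The lowest were those of Cbx5 (-0.42), Anln (-0.09, -1.81 to 1.72), Lbr (0.33), Tmpo (0.35), Hjurp (0.62), Ctcf (0.66), Anp32e (0.67), the spindle protein Ckap2 (0.85) and Cks1b (0.86). Cdk1 (0.97), Top2a (1.28) and Aurkb (1.23) lay in the lower part of the LK order, below the cyclin Ccnb2 and the other genes at the top. The other libraries did not repeat this for all of them. In TBM (median 2.6) Cdk1 was at 4.06, Top2a at 3.22 and Aurkb at 1.66. In LSK (median 2.13) they were at 1.76, 2.70 and 3.54. These LSK and TBM ratios rest on 9 UMIs or fewer in the S phase cells.

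Ccnb2 and Cenpa were at their lowest in LK cells high in S phase genes and low in the group. In LK cells low in both lists Ccnb2 had 47.1 CPM and in those S phase cells 14.7, and Cenpa had 37.6 and 12.1. Ube2c showed the reverse order, with 5.97 in cells low in both and 16.0 in S phase cells. The other libraries did not show the pattern of LK for both genes. In LSK, Cenpa had 28.0 CPM in cells low in both lists and no UMI in the 66 S phase cells, but Ccnb2 had 7.04 and 15.2. In TBM, Ccnb2 had 12.6 in cells low in both and 28.6 in S phase cells, and Cenpa had 23.4 and 22.1. These S phase values rest on 0 to 4 UMIs each in LSK and TBM.

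**Figure D5:**
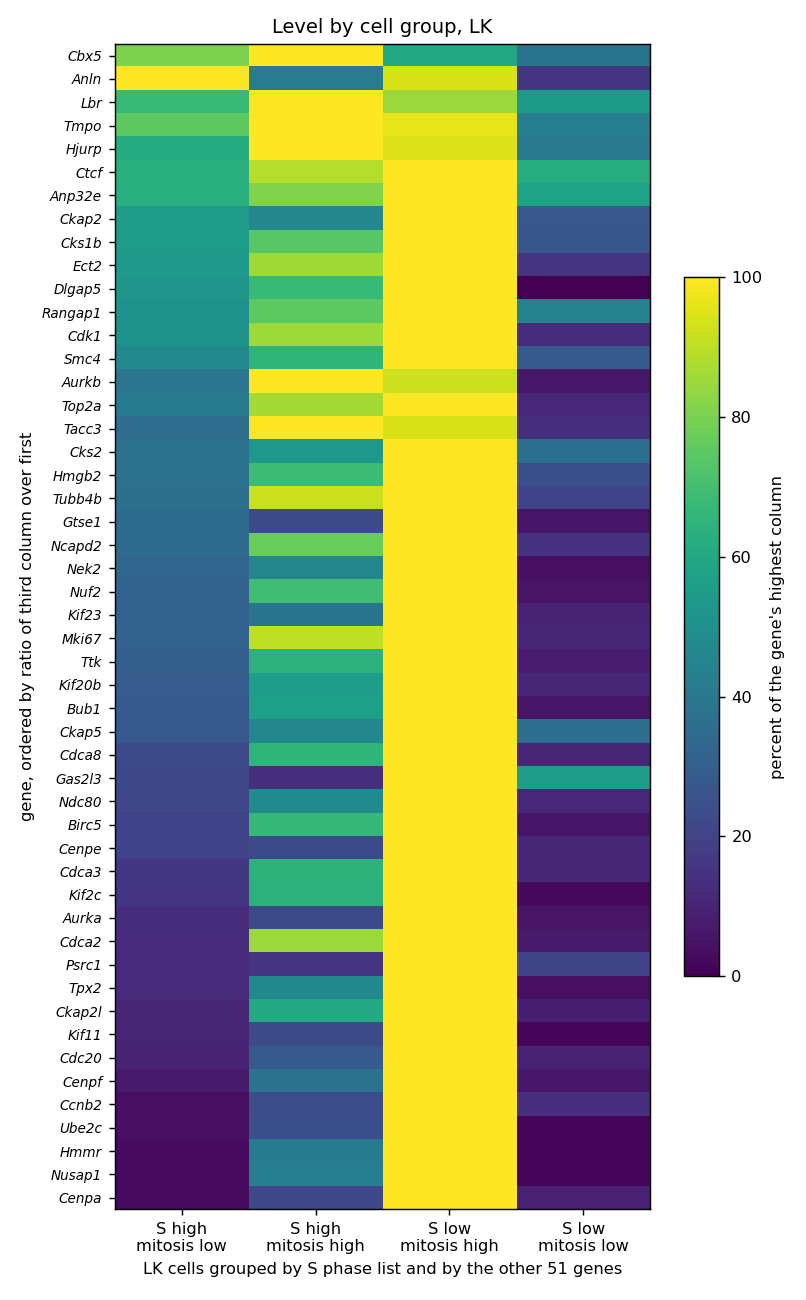
LK cells in 4 columns by the S phase list and the other 51 genes; colour is the level of each gene in percent of its highest column, and genes are ordered by the ratio of the third column over the first. Cbx5 and Lbr at the top are spread over the columns. Cenpa, Nusap1, Hmmr and Ube2c at the bottom are highest in S low, mitosis high cells. Cdc25c and G2e3 had no UMI in the first column, so they have no ratio and are not drawn.

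Pairs of genes went together loosely in single cells, as sparse counts allow. The closest pair was Ccnb2 and Cenpa in LSK (Pearson 0.4999 over 1067 cells), Ube2c and Nusap1 in LK (0.368 over 3452 cells) and Ube2c and Tubb4b in TBM (0.592 over 2929 cells). The median over all pairs was 0.0969, 0.0634 and 0.162. The cells of a library share their preparation and a fixed depth of 2000 UMIs, and no test was made.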

How the data were processed

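The deposited values are UMI counts per gene and cell barcode, whole numbers that the authors did not normalize, per the files themselves. The submitters' processing notes name Cell Ranger 4.0.0 and mm10; the annotation release is not given in the sources used here. Coordinates of genes come from GENCODE M21 on GRCm38 by gene identifier, and promoters from RefSeq GRCm38.p6. The members, the lists and the marker thresholds were chosen with earlier results of these data known.

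Barcodes with under 200 genes or with over 10% of UMIs from mitochondrial genes were left out. Scrublet, as built into scanpy, was run on each library by itself and removed 3 LSK, 3 LK and 73 TBM cells (0.28%, 0.0866% and 1.7%); in LSK and LK it found so few that doublets must be taken to remain. Free RNA was not corrected for. Each cell was thinned without replacement to 2000 UMIs. Counts have exact Poisson intervals, ratios of counts exact conditional binomial intervals and shares exact Clopper-Pearson intervals, all at 95%. With 1 library per group no test was possible, and a gene was called when at least 2-fold apart with at least 20 UMIs over both sides. The same call over all genes that had 20 UMIs gives the background percentages. The method was tested on simulated Poisson counts, with a factor per cell shared by the members and some other genes for the ratio within a library. The simulation held no mixture of lineages and no free RNA, so it checks the calculation only.

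Genes were named by rule: in each role the member with most UMIs, the 10 highest and 10 lowest ratios in LK, the 6 highest and 6 lowest ratios of each pair of libraries with at least 50 UMIs, and the 8 non-members with the largest ratio in each library with at least 100 UMIs. Other genes named were chosen after their values were seen. Alternatives were depths of 1000 and 5000 UMIs, 4 further seeds, doublets kept, at most 5% mitochondrial UMIs, other thresholds, the sum without Hmgb2, no thinning and size factors. Tools were Python 3.11.15, numpy 2.4.6, scipy 1.17.1, pandas 2.3.3, scanpy 1.11.5, anndata 0.12.19 and matplotlib 3.10.9.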

Additional observations from a re-analysis of the deposited data

How the results depend on the processing

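Of 179 values recomputed under other settings, 99 stayed within the spread, or within 1.5 times for a count, and 80 did not. The cause of these moves was not tested except where stated. The share of UMIs in the 52 genes, 0.356%, 0.458% and 0.622% in LSK, LK and TBM, kept its order throughout. It was 0.375% in LSK and 0.494% in TBM at 1000 UMIs per cell, and 0.368%, 0.477% and 0.928% at 5000 UMIs. Without Hmgb2 it was 0.274%, 0.348% and 0.43%, and without thinning 0.452%, 0.51% and 0.758%. TBM was at 1.16% with globin and neutrophil granule UMIs left out. There each cell was thinned to 2000 UMIs of the other genes, and cells short of that were dropped. LSK was at 0.364% with doublets kept, and LK at 0.464% with seeds 2 and 4. Depth thus limits the TBM value, since 30.5% of its cells fell short of 2000 UMIs.

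Shares of cells above the limit from mature B cells moved under most settings, which also moved the limit. In LSK, LK and TBM they were 6.47%, 5.84% and 13.3% at 1000 UMIs, 65.9%, 91.5% and 79.7% at 5000 UMIs (where too few reference cells remain), 27%, 44.4% and 36.9% at the 95th percentile, and 8.62%, 9.91% and 24.1% at the limit of 20 UMIs chosen after seeing the data. LK was at 0% with seed 2 and with doublets kept, and at 0.261% without Hmgb2. TBM was at 2.53%, 4.51% and 2.19% with seeds 2, 3 and 5, 1.73% with doublets kept, 4.88% without Hmgb2 and 12.5% without globin and granule UMIs.

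Counts of members at least 2-fold apart moved as follows. The share of all genes was not counted under these other settings, so these counts stand without a background. LSK over LK had 2 higher at 5000 UMIs, and 0, 3 and 4 lower without thinning, with size factors and at 1000 UMIs. LK over TBM had 2 higher at 1000 UMIs, and 22, 5 and 28 lower with size factors, at 1000 and at 5000 UMIs. LSK over TBM had 0, 0 and 4 higher without thinning, with size factors and at 1000 UMIs, and 34, 7 and 32 lower with size factors, at 1000 and at 5000 UMIs. Counts of members at least 2-fold higher in the upper 20% of cells stayed within 1.5 times.

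By marker class, doubled thresholds gave 0.108% for Procr and 0.28% for Flt3 cells of LSK, 0.409% for Elane and 0.542% for Car1 cells of LK, and in TBM 0.495% for Elane, 0.425% for Camp, Ngp and Ltf, 0.76% for Vpreb1 or Igll1, 0.475% for Cd79a with neither, 0.132% for Ighd and 0.687% for monocyte-like cells. Halved thresholds gave 0.561% for Flt3, 0.442% for LK Elane, and in TBM 0.684% for Fcnb, 0.362% for Camp, Ngp and Ltf and 0.539% for monocyte-like cells. At 5000 UMIs the values were 0.294% for Flt3, 0.551% for LK Car1, 0.662% for LK Ms4a2, and in TBM 0.6% for Camp, Ngp and Ltf, 0.113% for S100a8 and S100a9, 1.33% for globin, 1.54% for Vpreb1 or Igll1, 1.98% for Cd79a with neither, 0.13% for Ighd and 0.733% for monocyte-like cells. With globin and granule UMIs left out, Fcnb cells were at 1.35%, Camp, Ngp and Ltf at 0.977%, S100a8 and S100a9 at 0.271%, globin at 4.21% and Cd79a with neither at 0.754%.

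No paired analysis was possible because each group is 1 library. Leaving out a replicate was not run for the same reason.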
